A study of Mus musculus with 19 samples.

Results

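The collagen genes of the mouse were examined in chromatin accessibility profiles of neural stem cells on their way to astrocytes. They were taken as the protein-coding genes whose symbol is Col, a number, a and a number, which gave 44 of the 21887 protein-coding genes of the RefSeq table for GRCm38.p6. Peaks are regions called as open chromatin in the deposited table. A peak belonged to a collagen gene when its centre lay in the gene body or within 10 kb of either end. This gave 299 of the 90154 peaks of the deposited table, and they are called collagen peaks here. All collagen genes but Col10a1 had at least 1 peak, so 43 genes are described. The assignment is by position alone, and whether a peak lies in an exon or an intron is not given, because the gene table holds no transcripts.

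Collagens are secreted or membrane-bound proteins in which 3 chains wind into a triple helix rich in glycine and proline. Fibrillar collagens build tissue fibrils, network collagens such as type IV build the sheets of basement membranes, and the fibril-associated, beaded filament, transmembrane and multiplexin classes link these structures to each other and to cells. In the brain, collagen is found mainly in the basement membranes of vessels and of the outer surface, to which astrocyte endfeet attach, in the meninges, and in scars after injury.

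The assay was ATAC-seq, which uses a transposase to place sequencing adapters in open DNA. Neurospheres (NSPs) were grown in EGF from the ventricular zone of single brains of C57BL/6J mouse embryos at embryonic day 14, and cells were then differentiated towards astrocytes in serum, either alone or with 50 ng/ml of the cytokine TNF (tumor necrosis factor), a signal of inflammation. All cells were wild type, and the untreated and TNF-treated cells shared the same serum medium. The groups were NSPs (3 libraries), 24 h (3), 24 h TNF (3), 72 h (3), 72 h TNF (3) and 1 week without TNF (4). Values are normalised reads per peak, and 298 of the 299 collagen peaks were 500 bp long, so levels of different peaks can be set side by side.

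Reads in peaks ranged from 28636739 to 39349111 in NSPs and from 9640256 to 25165008 in the other groups, and 1 week replicate 3 was the shallowest. The names of the 10 libraries of 72 h, 72 h TNF and 1 week carry a tag that the other 9 lack, so that any difference tied to the tag and the group cannot be told apart in the comparisons of 72 h with 24 h and of 1 week with NSPs. At 212 peaks each tagged library had 3 reads or fewer where each other library had 20 or more. None of these was a collagen peak, but 12 collagen peaks, the 11 of Col16a1 and the one of Col7a1, lay within 1000000 bp of one. The share of reads in peaks of the X chromosome, which carries Col4a5 and Col4a6, was between 1.57% and 1.71% in tagged libraries and between 1.68% and 1.80% in the others. NSPs replicate 1 stood apart from the other NSP libraries at several collagen peaks, such as those of Col9a2 and Col22a1, and counts without it are given beside the results. The labels do not say which libraries came from separate cultures, so p-values measure only the spread between these libraries. In bulk cells, fewer cells with a region open and a region less open in each cell cannot be told apart.

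Collagen genes are long. Their median length was 114410 bp against 17169 bp over all protein-coding genes, and 257 of the collagen peaks lay in gene bodies and 42 in the flanks. Col27a1 and Col22a1 had 23 peaks each, Col5a1 and Col4a2 17 each and Col23a1 16, while Col1a2, one of the chains of type I collagen, had 2 and Col3a1, the type III chain, had 1. Of the collagen peaks, 22 (7.36%) lay within 1 kb of a listed transcription start, against 12.2% of all peaks tested. The mean level over groups had a median of 77.9 normalised reads in collagen peaks and 86.0 in all peaks tested. It ran from 3.70 to 2308 over collagen peaks. In the windows of 2 collagen genes lay 6 peaks. Another 6 lay inside the body of a gene that is no collagen, and 11 within 1 kb of an end of one.

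Which collagen regions opened or closed as NSPs differentiated was examined first. Peaks are called higher or lower where limma-trend, fitted to log2(value + 1) of all 19 libraries, gave a Benjamini-Hochberg adjusted p under 0.05 over the 88919 peaks that passed a filter on low values. Of the collagen peaks, 298 passed it. At 24 h against NSPs, 63 were higher and 61 lower, where 24.2% of all peaks tested were called higher and 23% lower. The median log2 change was -0.05 in collagen peaks and -0.07 in all peaks. Without NSPs replicate 1 the counts were 70 and 75. With each library scaled to its total reads in peaks (total-read scaling), 70.6% of the called collagen peaks were higher in place of 50.8%, and the median over all peaks moved from -0.07 to 0.11.

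At 72 h against 24 h, 40 collagen peaks were higher and 50 lower, beside 12% and 14.3% of all peaks. At 1 week against 72 h, 52 were higher and 62 lower, beside 22.5% and 16.2%, and the median was -0.11 in collagen peaks and 0.02 in all peaks. The split depended on the scaling, since 45.6% of the called collagen peaks were higher here, 33.9% in edgeR with TMM and 15.0% with total-read scaling, which moved the median of all peaks to -0.31. At 1 week against NSPs, 86 collagen peaks were higher and 109 lower, beside 33.7% and 33.6% of all peaks, with medians of -0.11 and 0.01. Without NSPs replicate 1 the counts were 88 and 110. These are shares of 28.9% and 36.6% of the collagen peaks tested.

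Libraries of 2 groups fell wholly apart at many peaks of the table. Apart from start peaks, the peaks named below were picked among called peaks whose groups did not overlap. Their lack of overlap in the comparison that picked them was thus fixed by the choice and is not a result. Over all peaks, the 24 h libraries lay wholly above the NSPs at 24.3% of peaks and wholly below them at 26%. The same shares were 20.2% and 22.1% at 72 h against 24 h, 26.7% and 17.5% at 1 week against 72 h, and 31.3% and 30.7% at 1 week against NSPs. With TNF they were 15.2% and 14.4% at 24 h and 17.6% and 15.3% at 72 h.

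**Figure D1:**
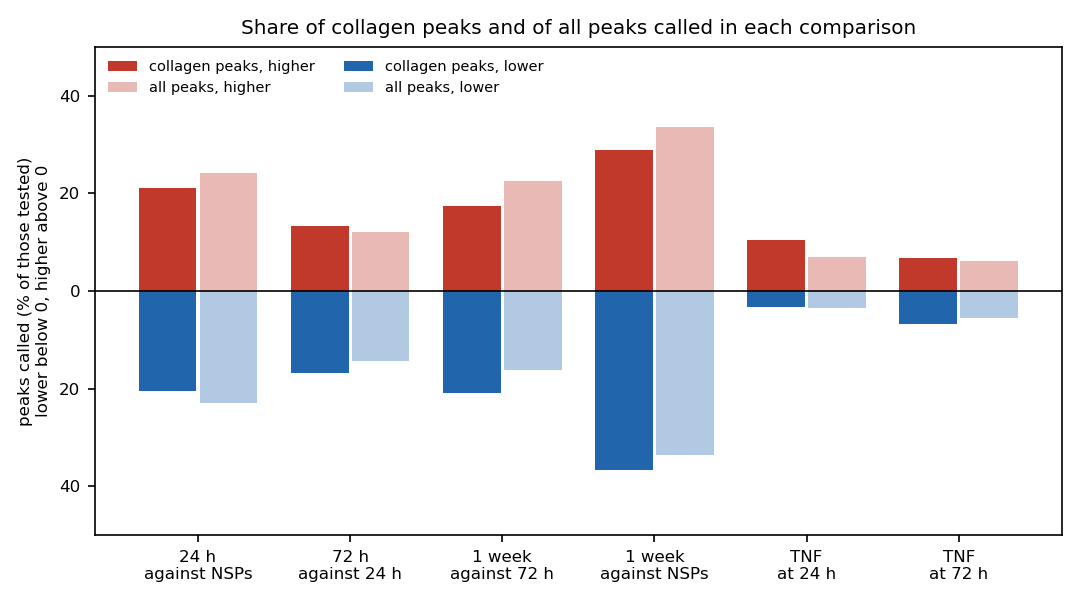
Bars give the percentage of peaks called higher (above 0) and lower (below 0) in each comparison, dark for the 298 collagen peaks tested and pale for all 88919 peaks tested. The collagen shares lie near those of all peaks in most comparisons, and the TNF comparison at 24 h has 10.4% higher against 7.06% of all peaks.

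Peaks of a gene could move apart. At 1 week against NSPs, 34 of the 43 genes had a higher peak, 33 had a lower one, 27 had both and 3 had none. In this comparison 33.7% of all peaks tested were called higher and 33.6% lower, and collagen genes held up to 23 peaks. Such counts were not made over all genes, so those here and below do not set collagen genes apart. Genes with both were fewer at the other steps and with TNF, where fewer collagen peaks were called. At 24 h against NSPs 26 had a higher peak, 24 a lower one and 16 both. These counts were 20, 24 and 11 at 72 h against 24 h, and 29, 27 and 22 at 1 week against 72 h. With TNF at 24 h they were 18, 8 and 4. The first step and the last step have no library in common, and their calls can be set against each other. Of the 63 collagen peaks higher at 24 h against NSPs, 22 were also called higher at 1 week against 72 h (34.9% of the first list, 42.3% of the second) and 1 was called lower. Of the 61 peaks lower at 24 h, 26 were also called lower in the last step (42.6% and 41.9%) and 9 were called higher (14.8% and 17.3%). Over all peaks, 31.9% of those higher at 24 h were called higher in the last step and 8.42% lower, so the collagen share of 34.9% was near that of all peaks. Of all peaks lower at 24 h, 27.7% were called higher in the last step and 22.9% lower.

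**Figure D2:**
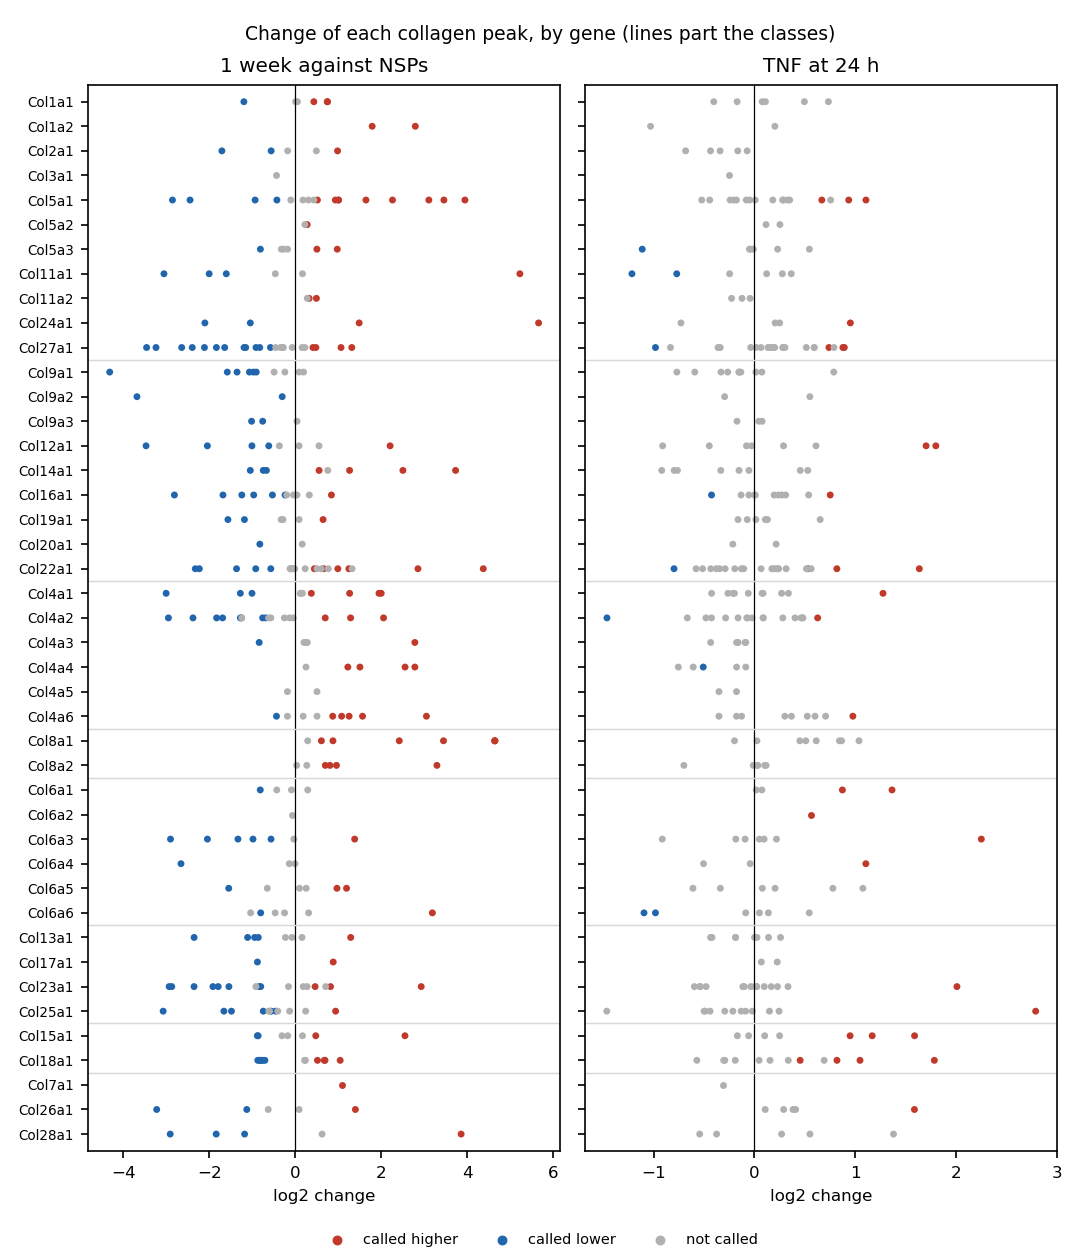
Each point is a collagen peak at its log2 change (x axis) in the row of its gene (a peak in the windows of 2 collagen genes is drawn in both rows), for 1 week against NSPs on the left and TNF at 24 h on the right. Most genes hold both red (called higher) and blue (called lower) points on the left, Col8a1 and Col4a4 hold no blue one there, and the right panel holds 31 peaks called higher and 10 lower.

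Peaks at gene starts were looked at next. The peak nearest to a start was within 1 kb in 24 genes, in 5 of them measured to either end because no start was listed, and these are 22 different peaks since Col4a1 with Col4a2 and Col4a3 with Col4a4 share one. The peaks of Col1a1, Col5a2, Col9a3 and Col12a1 were placed by either end and may lie at the far end of the gene. At 24 h against NSPs, 1 start peak was higher and 7 were lower, those of Col1a1, Col9a3 and Col12a1 among the lower. Over the 10855 peaks at listed starts of any gene 4.08% were higher and 42.8% lower. At 1 week against NSPs, 4 were higher, Col5a2 among them, and 9 lower, Col9a3 and Col12a1 among them. Of all start peaks 25.6% were higher and 27.0% lower. These all-gene shares hold listed starts only, so the 2 sets are not wholly alike. That of Col11a1, a minor chain of cartilage-type fibrils, had the highest level of the start peaks, with group means from 899 normalised reads at 72 h to 1389 at 1 week. Those of Col4a6 and Col6a5 were among the lowest, with group means between 28.3 and 56.2.

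**Figure D3:**
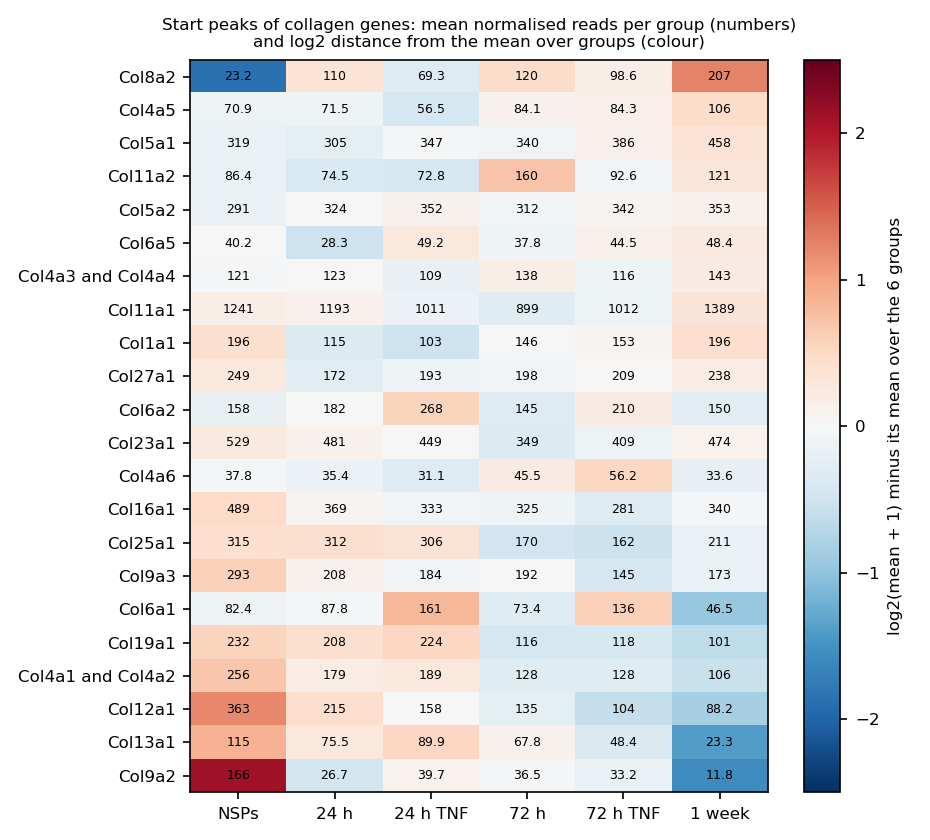
Rows are the 22 start peaks of collagen genes ordered by their change from NSPs to 1 week, columns are the 6 groups, the printed number is the group mean in normalised reads and the colour is the log2 distance from the mean over groups. The rows of Col1a1, Col5a2, Col9a3 and Col12a1 were placed by either end of the gene and may not lie at its start. Col8a2 at the top rises from 23.2 in NSPs to 207 at 1 week, Col9a2 at the bottom falls from 166 to 11.8, and Col6a1 and Col6a2 have their highest means in the TNF groups.

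The short chain network collagens had higher calls and no lower one at 1 week against NSPs. Col8a1 and Col8a2 encode the chains of type VIII collagen, which forms the hexagonal lattice under the corneal endothelium and occurs in vessel walls. Of their 14 peaks, 11 were higher and 0 lower at 1 week against NSPs, with a median log2 change of 0.92, and 7 were higher and 1 lower at 24 h. Counts at 1 week were 10 or 11 higher and 0 lower under each other scaling and tool tried. Among all peaks tested, 33.7% were higher and 33.6% lower at 1 week against NSPs, and 24.2% and 23% at 24 h.

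The Col8a1 peak at chr16:57740114-57740614 lay in the gene body, 14373 bp from the start. It held 44.4, 16.5 and 31.2 normalised reads in the NSP libraries, 286, 342 and 305 at 24 h, 409, 410 and 426 at 72 h, and 713, 691, 854 and 707 at 1 week. Each group lay wholly above the one before it. The log2 change was 3.40 ± 0.20 (SE) at 24 h against NSPs (limma-trend adjusted p = 5.1e-14) and 4.65 ± 0.19 at 1 week against NSPs (adjusted p = 1.2e-18). In all, 7 of the 8 Col8a1 peaks were higher at 1 week than in NSPs and none was lower, with a gene median of 2.94.

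The start peak of Col8a2 (chr4:126287198-126287698) held 43.2, 13.7 and 12.6 normalised reads in NSPs, 134, 95.9 and 101 at 24 h, 117, 141 and 101 at 72 h, and 235, 258, 180 and 154 at 1 week. All differentiated libraries were above all NSP libraries, and NSPs replicate 1 was the highest of the NSPs. The log2 change was 2.41 ± 0.31 at 24 h (limma-trend adjusted p = 2.3e-07) and 3.30 ± 0.29 at 1 week (adjusted p = 4.2e-11). No Col8a1 or Col8a2 peak was called with TNF at 24 h or 72 h.

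**Figure D4:**
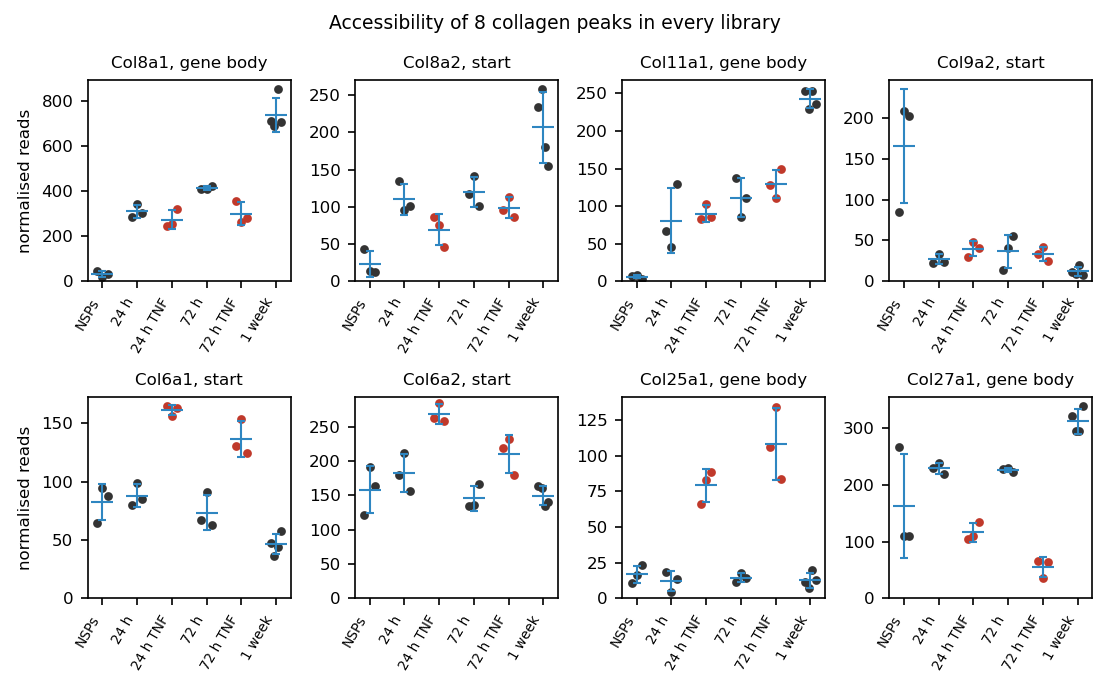
Points are single libraries (red with TNF, black without), and blue bars the group mean with its SD, in normalised reads on a linear axis from 0, for 8 collagen peaks over the 6 groups. The Col8a1, Col8a2 and Col11a1 peaks climb from NSPs to 1 week, the Col9a2 start falls, and at the Col6a1, Col6a2 and Col25a1 peaks the TNF libraries lie above the untreated ones of the same time, with those of Col27a1 below.

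Fibrillar collagens, the class of 11 genes that holds types I, II, III, V, XI, XXIV and XXVII, had 75 peaks tested, of which 27 were higher and 25 lower at 1 week against NSPs, with a median of 0.01. Which direction led depended on the scaling, since total-read scaling gave 25 higher and 28 lower with a median of -0.06. The main fit called 33.7% of all peaks tested higher and 33.6% lower in this comparison. Col5a1, a chain of type V collagen that limits fibril width, had 9 higher and 4 lower of 17. Col27a1, a fibrillar chain of cartilage, had 4 higher and 12 lower of 23. Both peaks of Col1a2 were higher, with a median of 2.30. They rose from low values, their sum being 25.5 ± 9.30 normalised reads (SD, n = 3) in NSPs and 119 ± 12.9 (n = 4) at 1 week. Col1a1, the partner of Col1a2 in type I collagen, had 3 higher and 1 lower of 6, with sums of 1378 ± 147 and 1328 ± 32.3. The single Col3a1 peak was not called in any comparison.

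The Col11a1 peak at chr3:114052360-114052860, in the gene body 22070 bp from the start, was near the floor of the measurement in NSPs, with 6.43, 7.54 and 3.32 normalised reads. It held 67.2, 45.7 and 129 at 24 h, 138, 84.9 and 111 at 72 h, and 254, 230, 253 and 236 at 1 week. All later libraries lay above the NSPs, and the 1 week libraries above all others. The log2 change at 1 week against NSPs was 5.23 ± 0.26 (limma-trend adjusted p = 1.4e-16). The gene's start peak did not follow it, with means of 1241 ± 177 (SD, n = 3) in NSPs and 1389 ± 66.3 (n = 4) at 1 week, and it was not called in this comparison. Another Col11a1 peak (chr3:114065522-114066022) fell by 1.60 ± 0.16 (adjusted p = 4.8e-10), from 372, 278 and 301 to 97.0, 107, 119 and 91.1.

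Within Col5a1, the peak at chr2:27931916-27932416 rose from 14.6, 10.8 and 9.30 normalised reads in NSPs to 55.8, 51.6 and 78.8 at 24 h, 86.2, 129 and 90.5 at 72 h, and 215, 184, 231 and 145 at 1 week, again with no overlap from group to group. Its log2 change at 1 week against NSPs was 3.95 ± 0.23 (limma-trend adjusted p = 3.6e-15). The peak at chr2:27916284-27916784 rose from a mean of 9.92 ± 3.60 in NSPs to 31.3 ± 10.4 at 24 h and 85.9 ± 18.8 at 72 h (SD, n = 3 each). The 72 h change against 24 h was 1.45 ± 0.29 (adjusted p = 0.00042). At the start of Col5a1, the peak at chr2:27885722-27886222 changed less, from 336, 325 and 296 in NSPs to 436, 424, 453 and 521 at 1 week, by 0.52 ± 0.12 (adjusted p = 0.00026).

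Col27a1 went mostly the other way. Its peak at chr4:63302556-63303056 held 209, 363 and 347 normalised reads in NSPs, 180, 156 and 142 at 24 h, 70.8, 61.0 and 90.5 at 72 h, and 18.5, 21.0, 28.6 and 41.8 at 1 week. The groups did not overlap at any step. The log2 change at 1 week was -3.46 ± 0.23 against NSPs (limma-trend adjusted p = 7.6e-14) and -1.45 ± 0.23 against 72 h (adjusted p = 1.8e-05). A second peak, at chr4:63228891-63229391, had already fallen by 1.96 ± 0.23 at 24 h (adjusted p = 3.4e-08), from 449, 398 and 400 to 138, 90.0 and 94.8. The start peak (chr4:63215162-63215662) was 249 ± 13.8 in NSPs and 238 ± 23.7 at 1 week and was not called between them. At 24 h it was lower by 0.54 ± 0.16 (adjusted p = 0.0066), a call lost without 24 h replicate 1 (adjusted p = 0.0507) and with total-read scaling (adjusted p = 0.104).

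**Figure D5:**
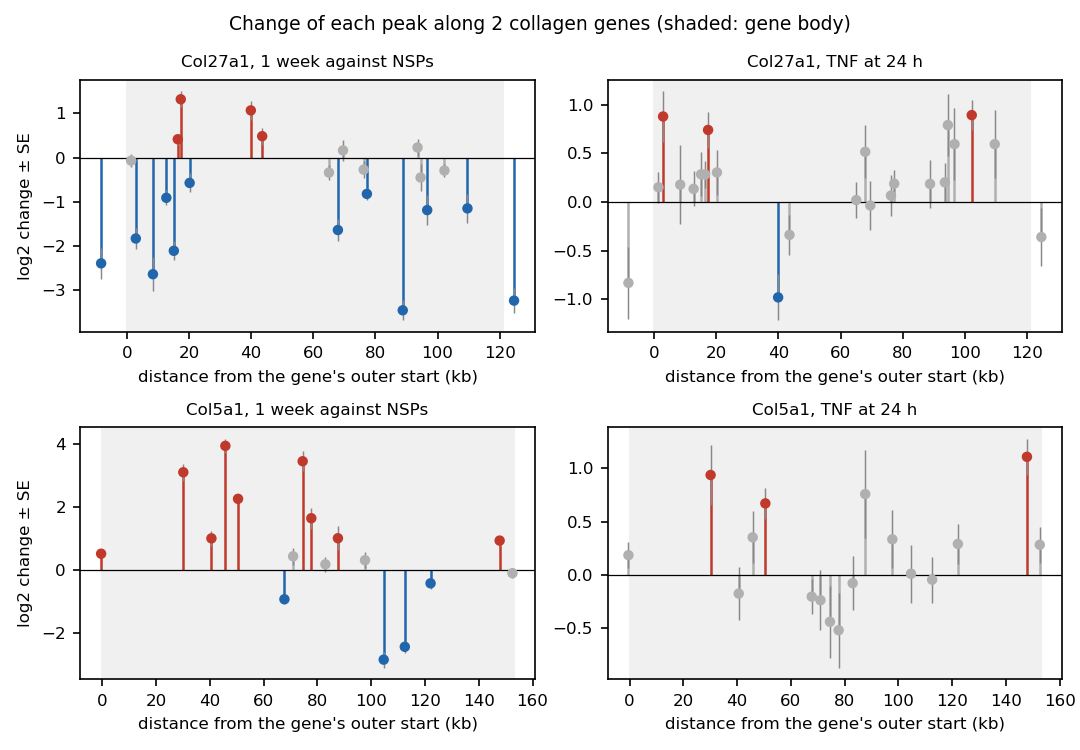
Points are peaks of Col27a1 (top) and Col5a1 (bottom) at their distance from the gene's outer start in kb (x axis) and their log2 change with its SE (y axis), for 1 week against NSPs on the left and TNF at 24 h on the right, red where called higher, blue where called lower, grey where not called. Called peaks of both directions lie side by side in each gene, 4 higher and 12 lower in Col27a1 and 9 higher and 4 lower in Col5a1 at 1 week.

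Other fibrillar chains gave single strong peaks. The Col5a3 peak at chr9:20794187-20794687 was the highest collagen peak, with means of 2296 ± 260 normalised reads in NSPs, 1956 ± 251 at 72 h and 3265 ± 366 at 1 week. Its change of 0.74 ± 0.11 over 72 h (limma-trend adjusted p = 5.2e-06) was -0.00237 with a loess offset per library (adjusted p = 0.989). A Col1a1 peak in the flank, 7245 bp from an end of the gene, at chr11:94928729-94929229 fell from 273, 352 and 355 in NSPs to 122, 85.6 and 115 at 24 h and stayed between 120 and 159 at 1 week, with a change of -1.60 ± 0.18 at 24 h (adjusted p = 3.2e-08). The start peak of Col11a2, which encodes a second chain of type XI collagen and lies beside an end of Rxrb, held 74.0, 76.7 and 72.7 at 24 h and 149, 167 and 163 at 72 h. It was higher at 72 h by 1.09 ± 0.18 (adjusted p = 6.6e-05).

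Basement membrane collagens, the 6 type IV chains, had 43 peaks tested. At 24 h 14 were higher and 7 lower, and at 1 week 16 were higher and 12 lower, both against NSPs. Shares over all peaks tested were 24.2% and 23% at 24 h and 33.7% and 33.6% at 1 week. Col4a1 and Col4a2 encode the chains of almost every basement membrane and lie head to head. Their shared start peak (chr8:11312567-11313067) held 267, 254 and 247 normalised reads in NSPs, 162, 207 and 169 at 24 h, 135, 120 and 130 at 72 h, and 115, 129, 88.0 and 94.4 at 1 week. All later libraries lay below the NSPs. The log2 change at 1 week was -1.28 ± 0.15 (limma-trend adjusted p = 1.3e-08). Over its 17 peaks Col4a2 had 3 higher and 8 lower at 1 week, and Col4a1 had 4 and 3 of 10.

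The other 4 chains belong to restricted basement membranes. At 1 week against NSPs all 4 called peaks of Col4a4 were higher, of 5 tested, and 5 of 9 Col4a6 peaks were higher and 1 lower. Col4a3 had 1 higher and 1 lower of 5, and neither of the 2 Col4a5 peaks was called. The higher peak of Col4a3, with a log2 change of 2.79, lies in the windows of both genes and is also among the 4 of Col4a4. The Col4a4 peak at chr1:82476688-82477188 held 291, 424 and 518 normalised reads in NSPs, 556, 530 and 589 at 72 h, and 928, 860, 1043 and 930 at 1 week. Its change at 1 week was 1.23 ± 0.14 (limma-trend adjusted p = 1.2e-08). The start peak that Col4a3 and Col4a4 share was not called in any comparison, with group means from 109 to 143, nor were the start peaks of Col4a5 (56.5 to 106) and Col4a6 (31.1 to 56.2). A Col4a3 peak in the gene body (chr1:82634422-82634922) fell from 500, 437 and 458 at 24 h to 250, 231 and 228 at 72 h, by 0.97 ± 0.15 (adjusted p = 2.4e-05). A Col4a6 peak (chrX:141385642-141386142) fell at the same step from 116, 133 and 181 to 65.6, 53.8 and 62.5, by 1.21 ± 0.20 (adjusted p = 4.8e-05), in libraries whose share of X chromosome reads was lower as given above.

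Fibril-associated collagens sit on the surface of fibrils. Their 9 genes had 71 peaks tested, of which 13 were higher and 31 lower at 1 week against NSPs, with a median of -0.23. Of all peaks tested, 33.7% were higher and 33.6% lower. Among the fibril-associated peaks, lower calls led under each scaling and tool tried. The type IX chains, which coat cartilage fibrils, had no higher peak in this comparison: Col9a1 had 6 lower of 10, Col9a2 2 of 2 and Col9a3 2 of 3. The start peak of Col9a2 (chr4:121039814-121040314) held 85.3, 209 and 203 normalised reads in NSPs, 22.8, 33.9 and 23.4 at 24 h, 14.2, 40.7 and 54.8 at 72 h, and 11.5, 8.57, 19.8 and 7.51 at 1 week. NSPs replicate 1 was the lowest of the NSPs and still above all later libraries. The change was -2.50 ± 0.42 at 24 h (limma-trend adjusted p = 1.5e-05) and -3.68 ± 0.39 at 1 week (adjusted p = 2.2e-09).

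Col12a1, Col16a1 and Col19a1 also had lower peaks. For Col12a1, whose product links type I fibrils, the end peak (chr9:79599317-79599817) held 388, 312 and 389 normalised reads in NSPs and 115, 84.9, 77.0 and 76.1 at 1 week, a change of -2.04 ± 0.16 (limma-trend adjusted p = 5.8e-12). The Col19a1 start peak (chr1:24586335-24586835) fell from 208 ± 12.0 (SD, n = 3) at 24 h to 116 ± 9.46 at 72 h (SD, n = 3), by 0.84 ± 0.17 (adjusted p = 0.00052). Of the 11 Col16a1 peaks, 7 were lower and none higher at 24 h against NSPs. Among all peaks tested, 23% were lower and 24.2% higher at this step. The call of the Col16a1 start peak (-0.41, limma-trend adjusted p = 0.026) was lost with total-read scaling (adjusted p = 0.269) and with loess offsets (adjusted p = 0.139). Of the 7, the peak with the smallest p was at chr4:130074995-130075495, from 802, 1084 and 974 in NSPs to 422, 487 and 403 at 24 h (-1.12 ± 0.11, adjusted p = 1.5e-09). This peak was between 794 and 818 at 1 week, a rise of 0.51 over 72 h (limma-trend adjusted p = 0.00029). The call was lost with total-read scaling (0.17, adjusted p = 0.189) and with loess offsets (0.064, adjusted p = 0.68). Its neighbour at chr4:130054999-130055499 went on down, from 561, 648 and 569 in NSPs to 169, 175, 183 and 211 at 1 week (-1.68 ± 0.13, adjusted p = 1.1e-12).

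Col14a1 and Col22a1 had more higher than lower peaks at 24 h against NSPs, where 24.2% of all peaks tested were higher and 23% lower. Col14a1, another collagen of fibril surfaces, had 5 higher and 1 lower of 8 peaks, and Col22a1, known from junctions between tissues such as muscle and tendon, had 8 higher and 2 lower of 22, so that 12 were not called. The Col22a1 peak at chr15:72010593-72011093 held 148, 64.5 and 44.5 normalised reads in NSPs, 725, 612 and 629 at 24 h, 398, 333 and 413 at 72 h, and 554, 586, 513 and 562 at 1 week. Its change at 24 h was 3.10 ± 0.22 (limma-trend adjusted p = 2.8e-12). The Col14a1 peak at chr15:55510912-55511412 rose in 2 steps, from 77.7, 114 and 103 in NSPs to 283, 235 and 190 at 24 h and 563, 613, 500 and 553 at 1 week, by 1.33 ± 0.15 over 72 h in the second (adjusted p = 3.8e-07). At 72 h, by contrast, Col22a1 had 3 higher and 7 lower peaks against 24 h, beside 12% and 14.3% of all peaks tested.

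Transmembrane collagens, which span the cell membrane and shed their outer part, leaned to lower values. Their 38 peaks held 6 higher and 19 lower at 1 week against NSPs, with a median of -0.60. At 72 h against 24 h they held 2 higher and 10 lower. Lower calls led under each scaling and tool tried in both. All peaks tested had shares of 33.7% and 33.6% in the first comparison and 12% and 14.3% in the second. Col23a1 had 3 higher and 8 lower of 16 at 1 week, and Col25a1, a neuronal collagen whose shed part is found in amyloid plaques, had 1 higher and 6 lower of 12. At 24 h the Col25a1 start peak (chr3:130180430-130180930) held 346, 282 and 307 normalised reads, and at 72 h it held 149, 177 and 184, a change of -0.87 ± 0.16 (limma-trend adjusted p = 0.00021). The Col13a1 start peak (chr10:61978237-61978737) fell from 113, 116 and 117 in NSPs to 15.0, 39.0, 19.8 and 19.3 at 1 week, by 2.35 ± 0.29 (adjusted p = 3.8e-08).

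Beaded filament collagens, the type VI chains, form microfibrils around cells. Of 27 peaks, 4 were higher and 9 lower at 1 week against NSPs, and 4 higher and 10 lower against 72 h. Among all peaks tested, 33.7% were higher and 33.6% lower in the first comparison, and 22.5% and 16.2% in the second. Col6a3, the largest chain, had 1 higher and 5 lower of 7 at 1 week. Its peak at chr1:90775492-90775992 held 193, 345 and 314 normalised reads in NSPs, 123, 105 and 121 at 24 h, 61.8, 62.2 and 81.6 at 72 h, and 50.3, 29.6, 44.0 and 25.7 at 1 week. The groups did not overlap from step to step, and the change from NSPs to 1 week was -2.90 ± 0.23 (limma-trend adjusted p = 5.6e-12).

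The multiplexins Col15a1 and Col18a1, basement membrane proteins of which the latter releases endostatin, had 19 peaks with 6 higher and 8 lower at 1 week against NSPs. This balance turned with loess offsets, which gave 6 higher and 4 lower. The remaining genes, Col7a1 of the anchoring fibrils of skin, Col26a1 and Col28a1, had 11 peaks with 3 higher and 5 lower. Both sets stand beside 33.7% higher and 33.6% lower among all peaks tested at 1 week against NSPs. The one peak of Col7a1 lies inside Pfkfb4 and close to a stretch with near-zero peaks in tagged libraries. It held 212, 230 and 223 normalised reads at 24 h and 337, 368 and 353 at 72 h.

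The effect of TNF on these regions was asked by setting treated against untreated cells of the same time, which lie within a tag. At 24 h, 31 collagen peaks were higher and 10 lower with TNF, beside 7.06% and 3.53% of all peaks, and the median log2 change was 0.04 in collagen peaks and -0.03 in all peaks. At 72 h, 20 were higher and 20 lower, beside 6.24% and 5.55%. With total-read scaling 31.0% of the called collagen peaks at 72 h were higher in place of 50%. The counts fell whichever library of the groups compared was left out. They fell to between 15 and 27 higher and 4 and 8 lower at 24 h, and to between 11 and 15 higher and 12 and 16 lower at 72 h. The smallest higher counts came without 24 h TNF replicate 3 and without 72 h TNF replicate 1. Higher peaks at 24 h lay in 18 genes, lower ones in 8, both in 4, and 21 genes had neither.

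The comparisons of TNF at 24 h and 72 h have no library in common. Of the peaks higher at 24 h, 15 were also called higher at 72 h (48.4% of the 24 h list and 75% of the 72 h list), 29 of 31 had a positive change there, and 0 were called lower. Of those lower at 24 h, 6 were also called lower at 72 h (60% and 30%). Over all peaks, 51.7% of the higher list at 24 h and 58.5% of that at 72 h were shared, and 52.7% and 33.5% of the lower lists. The interaction of TNF with time gave 0 collagen peaks in limma-trend, edgeR and DESeq2. Over all peaks, 0.00112% were called lower and 0% higher in limma-trend, by adjusted p. At an unadjusted p under 0.05 in limma-trend stood 27 of 298 collagen peaks. That share was not taken over all peaks, so it does not set collagen peaks apart.

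Type VI collagen had the only start peaks that were higher with TNF. Col6a1 and Col6a2 encode its short chains and are neighbours on chromosome 10. The start peak of Col6a1 (chr10:76725842-76726342) held 79.7, 98.8 and 85.0 normalised reads at 24 h and 164, 156 and 163 at 24 h TNF, then 66.9, 90.9 and 62.5 at 72 h and 131, 154 and 125 at 72 h TNF. No treated library overlapped an untreated one at either time. The log2 change was 0.87 ± 0.21 at 24 h (limma-trend adjusted p = 0.0056) and 0.90 ± 0.21 at 72 h (adjusted p = 0.0042). Untreated cells went down with time, to 47.6, 36.6, 44.0 and 57.9 at 1 week.

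The Col6a2 start peak (chr10:76623204-76623704) held 180, 211 and 156 normalised reads at 24 h, 262, 284 and 259 at 24 h TNF, 134, 136 and 166 at 72 h, and 218, 232 and 179 at 72 h TNF. Treated and untreated libraries were apart at both times here as well. The change was 0.56 ± 0.17 at 24 h (limma-trend adjusted p = 0.027) and 0.52 ± 0.17 at 72 h (adjusted p = 0.038). This call was fragile: it was lost on leaving out any of 5 of the 6 libraries at 24 h, with adjusted p up to 0.126, and any of 4 of the 6 at 72 h, up to 0.154. At 72 h it was also lost with total-read scaling (0.45, limma-trend adjusted p = 0.0995) and in edgeR with TMM (0.50, adjusted p = 0.0575). Over all genes, 1.46% of start peaks were higher with TNF at 24 h and 2.98% at 72 h.

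The sequences just upstream of both genes are shown because theirs were the start peaks that rose with TNF. They were read from RefSeq promoters on GRCm38.p6, 5′ to 3′ on the minus strand on which both genes lie, and end at the base before the listed start (for Col6a2 the outer of 2 listed starts). Capitals mark matches on either strand to the AP-1 site TGANTCA or to the NF-kB consensus, the binding site of a factor that TNF activates.
Col6a1 (chr10:76726045-76726294): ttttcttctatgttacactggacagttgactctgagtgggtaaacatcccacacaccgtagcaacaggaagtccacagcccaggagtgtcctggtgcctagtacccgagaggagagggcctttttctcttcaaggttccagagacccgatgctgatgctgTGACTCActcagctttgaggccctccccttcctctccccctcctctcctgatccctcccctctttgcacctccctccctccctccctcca
Col6a2 (chr10:76623631-76623880): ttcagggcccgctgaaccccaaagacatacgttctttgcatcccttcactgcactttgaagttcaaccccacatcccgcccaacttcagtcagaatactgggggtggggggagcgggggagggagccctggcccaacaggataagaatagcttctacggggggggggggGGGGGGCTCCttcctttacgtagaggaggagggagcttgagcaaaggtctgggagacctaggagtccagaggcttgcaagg

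The AP-1 match of Col6a1 lies 84 bases before the start and inside the start peak, which covers all 250 bases shown. Col6a1 was the only one of the 35 collagen genes with a listed start to hold this motif in its 250 upstream bases, which is 2.86% of them beside 7.19% of all genes and 6.13% of the 21263 upstream windows. The NF-kB match of Col6a2 lies 72 bases before the outer start, in a run of G that reaches past the edge of the start peak, so the match is not inside that peak. The peak covers 74 bases of this window and all 250 of the window before the other listed start, which held 0 matches. The consensus was matched in 6 of the 35 collagen genes (17.1%), namely Col9a1, Col27a1, Col9a2, Col4a2, Col6a4 and Col6a2, beside 9.08% of all genes and 7.91% of all windows. A match describes the letters only, and binding was not measured.

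In gene bodies, TNF opened some regions that were near the floor without it. The Col25a1 peak at chr3:130497014-130497514, 316419 bp from the start, held 18.2, 4.43 and 13.5 normalised reads at 24 h and 66.3, 83.0 and 88.3 at 24 h TNF, then 11.6, 17.9 and 14.0 at 72 h and 106, 135 and 84.0 at 72 h TNF. It stayed between 7.01 and 23.3 in NSPs and at 1 week. The log2 change was 2.79 ± 0.42 at 24 h (limma-trend adjusted p = 4.0e-05) and 2.81 ± 0.42 at 72 h (adjusted p = 3.5e-05). It was the only one of the 12 Col25a1 peaks higher with TNF at either time.

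Of the 19 multiplexin peaks 7 were higher with TNF at 24 h and 3 at 72 h, and none was lower. Among all peaks tested, 7.06% were higher and 3.53% lower at 24 h, and 6.24% and 5.55% at 72 h. With TNF at 24 h, 4 of 12 Col18a1 peaks and 3 of 7 Col15a1 peaks were higher. The Col18a1 peak at chr10:77116443-77116943 held 20.5, 22.1 and 34.5 normalised reads at 24 h, 102, 85.1 and 81.0 at 24 h TNF, 11.6, 12.0 and 17.8 at 72 h, and 76.0, 84.2 and 43.2 at 72 h TNF. Treated libraries were above untreated ones throughout, by 1.79 ± 0.40 at 24 h (limma-trend adjusted p = 0.0028) and 2.19 ± 0.40 at 72 h (adjusted p = 0.00035).

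Single peaks of other classes rose too. The Col22a1 peak at chr15:71853150-71853650 held 93.4, 84.1 and 86.2 normalised reads at 24 h and 233, 260 and 346 with TNF, a change of 1.64 ± 0.21 (limma-trend adjusted p = 2.8e-06). The Col12a1 peak at chr9:79648574-79649074 rose from 22.8, 25.1 and 44.3 to 93.7, 129 and 95.5 at 24 h, and from 33.5, 40.7 and 38.2 to 111, 129 and 86.4 at 72 h, by 1.80 ± 0.29 and 1.50 ± 0.29 (adjusted p = 9.0e-05 and 0.00075). The Col5a1 peak at chr2:28033906-28034406 rose from 142, 114 and 137 to 268, 302 and 277 at 24 h, by 1.11 ± 0.17 (adjusted p = 4.9e-05). The treated and untreated libraries did not overlap in these 3, which was a condition of their choice in 1 TNF comparison each.

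Regions that closed with TNF were fewer at 24 h. The Col27a1 peak at chr4:63253673-63254173 held 230, 239 and 219 normalised reads at 24 h and 104, 110 and 135 at 24 h TNF, then 228, 230 and 223 at 72 h and 65.3, 35.5 and 64.8 at 72 h TNF. It was at 322, 295, 295 and 340 in untreated cells at 1 week. The change was -0.98 ± 0.24 at 24 h (limma-trend adjusted p = 0.0060) and -2.07 ± 0.24 at 72 h (adjusted p = 6.3e-07). The Col4a2 peak at chr8:11338100-11338600 fell from 135, 117 and 82.5 to 39.8, 33.4 and 44.7 at 24 h, by 1.46 ± 0.35 (adjusted p = 0.0056). At 72 h it fell by 1.40 ± 0.35 (adjusted p = 0.0074), a call lost without 72 h TNF replicate 2 (adjusted p = 0.071).

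Further lower calls fell in several classes. The Col11a1 peak at chr3:114065522-114066022 was lower with TNF at 24 h, with 136, 131 and 142 normalised reads against 240, 291 and 182, by 0.77 ± 0.17 (limma-trend adjusted p = 0.0027). At 72 h, the Col6a6 peak at chr9:105742133-105742633 held 51.5, 38.3 and 45.9 untreated and 9.83, 20.7 and 12.0 treated, and so fell by 1.66 ± 0.33 (adjusted p = 0.00086). The Col4a4 peak at chr1:82476688-82477188, which rose over time, was 359, 356 and 342 with TNF at 72 h against 556, 530 and 589 without, by -0.66 ± 0.15 (adjusted p = 0.0040). That of Col11a2 was the only start peak lower with TNF, with 90.3, 97.6 and 90.0 at 72 h TNF against 149, 167 and 163 (-0.78 ± 0.18, adjusted p = 0.0043).

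Genes that make, cut, cross-link or bind collagen were described through the peak nearest to an end of each gene. Of 50 such genes, 39 had one and 38 were tested. At 24 h against NSPs 1 was higher and 13 lower, at 1 week against NSPs 7 were higher and 16 lower, and at 1 week against 72 h 14 were higher and 4 lower. Over all start peaks, 4.08% were higher and 42.8% lower in the first of these comparisons, 25.6% and 27.0% in the second, and 59.6% and 4.52% in the third. The all-gene shares count peaks at listed starts, whereas the list genes were read at either end. The lists are small and are given as counts only. Among the 11 prolyl and lysyl modification genes tested, which stabilise the helix, 2 were higher and 4 lower at 1 week against NSPs, and P4ha2, a prolyl hydroxylase subunit, changed by -0.94 ± 0.21 (limma-trend adjusted p = 0.0002). For folding and export 3 of 4 were higher and 1, Fkbp10, a helix-folding isomerase, was lower (-0.28 ± 0.12, adjusted p = 0.043), with Serpinh1, the collagen chaperone, at 0.67 ± 0.13 (adjusted p = 6.4e-05) and Sparc, a collagen-binding matrix protein, at 1.04 ± 0.12 (adjusted p = 1.6e-08).

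Propeptide cleavage genes had 0 higher and 5 lower of 8 at 1 week against NSPs, beside 25.6% and 27.0% of all start peaks, Bmp1, the C-proteinase, among them at -0.50 ± 0.11 (limma-trend adjusted p = 0.00018). Of the 2 crosslinking genes tested, Loxl3 was higher by 0.60 ± 0.12 and Loxl4 lower by 0.79 ± 0.26. Collagen receptors had 0 higher and 3 lower of 8, with Ddr1 at -0.96 ± 0.13 (adjusted p = 1.7e-07), and degradation genes had 1 higher and 2 lower of 5, Timp2 at 0.64 ± 0.12 and Timp1 at -2.39 ± 0.40. With TNF, Mmp2, a gelatinase, was higher at 24 h (0.82 ± 0.25, adjusted p = 0.028) and at 72 h (0.99 ± 0.25, adjusted p = 0.0074), Loxl4 was higher at 24 h and Tll2, a propeptide proteinase, lower at 72 h. No other gene of these lists was called with TNF.

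The cultures were checked against markers through the same kind of peak. Of 10 astrocyte markers 8 had one, and Aqp4 and Slc14a1, of water and urea transport, had none. At 24 h against NSPs 1 of the 8 was higher and 5 were lower, beside 4.08% and 42.8% of all start peaks. The higher one was Gfap, the astrocyte filament gene (2.35 ± 0.22, limma-trend adjusted p = 6.4e-10), and the lower ones were S100b (-0.58 ± 0.15, adjusted p = 0.0017), Slc1a2, Slc1a3, Aldoc and Gpld1. The study, by contrast, lists Gpld1 with Gfap among markers whose accessibility rose at 24 h. It used peaks in promoter regions, whereas the peak read here may lie at either end of the gene. The summed level of the 8 was 2140 to 2316 normalised reads in NSPs, 1959 to 2318 at 24 h, 2215 to 2420 at 72 h and 1785 to 2046 at 1 week, and so was not higher at 1 week than in NSPs. It was 1644 to 1809 at 24 h TNF and 1667 to 1784 at 72 h TNF. With TNF, 0 of the 8 were higher and 0 lower at 24 h, and 0 higher and 3 lower at 72 h. Over all start peaks, 1.46% were higher and 0.44% lower at 24 h, and 2.98% and 0.87% at 72 h. Of 7 neural progenitor markers 6 had a peak, all 6 were lower at 24 h, and their sum was 4128 to 4561 in NSPs, 2477 to 2934 at 24 h and 3449 to 3700 at 1 week. Of 9 fibroblast or meningeal markers 4 had one, and Dcn, Lum, Pdgfra, Twist1 and Twist2 had none. The summed level of the 4 was 1449 to 1537 normalised reads in NSPs, 1099 to 1239 at 24 h, 935 to 1067 at 72 h and 1387 to 1504 at 1 week. For pericyte or smooth muscle markers, 5 of 8 had a peak, Pdgfrb, Rgs5 and Abcc9 had none, and the sum was 577 to 792 in NSPs and 770 to 856 at 24 h. Within it Acta2, Tagln and Myh11, which encode contractile proteins, were higher at 24 h by 1.78, 1.71 and 1.25, while Kcnj8 and Cspg4 were not called, at -0.36 ± 0.18 and -0.24 ± 0.16. Of 8 endothelial and 8 microglial markers 3 each had a peak, with sums of 442 to 466 and 317 to 401 in NSPs and 225 to 374 and 288 to 351 at 1 week. The part of these cells in the collagen changes was not tested.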

How the data were processed

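ATAC-seq libraries of 19 samples were grouped by their titles into 6 groups. According to the labels and the methods of the study, reads were trimmed with Trim Galore, aligned to mm10 with Bowtie2 and filtered with SAMtools, peaks were called with MACS2, and DiffBind was used for differential accessibility. Tool versions, how duplicates and the transposase offset were handled, and how the table was normalised are not given in the sources used here. The deposited values are a signal that the authors derived from the reads of each library in 1 common peak set. In each library 100% of values were whole multiples of the lowest (tolerance 0.01), so reads were recovered, of which no value is under 1 read. Odd numbers made up 61.8% of values between 2 and 20 reads, so depths describe the table rather than DNA fragments.

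The values being normalised, log2(value + 1) of all libraries was modelled by limma-trend (R 4.3.3, limma 3.58.1), 1 mean for each group without covariates. Log2 changes of low peaks are understated by the added 1. Peaks were kept by filterByExpr of edgeR 4.0.16 on recovered reads with a minimum count of 10. Tests were two-sided, with Benjamini-Hochberg adjustment over 88919 peaks. The fit was tested on simulated data. Alternatives were total-read scaling (to the reads in peaks, since the table holds no others), loess offsets, edgeR with TMM and DESeq2 1.42.0 on recovered reads, a pseudocount of 5, no filter, only the groups compared, a replicate block, gene bodies only and each library left out.

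Gene positions and promoters came from RefSeq on GRCm38.p6, the assembly that mm10 names. Peaks named are the start peak of each gene and, per comparison and direction, the 3 called peaks with the smallest p whose groups did not overlap, at most 1 a gene. Genes of collagen biosynthesis, receptors and turnover and cell type markers were read through the peak nearest to an end within 1 kb. The members and lists were chosen with earlier results of these data known.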

Additional observations from a re-analysis of the deposited data

Results flagged for a closer look

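At 3 collagen peaks, 1 of the 4 libraries of the 1 week group lay far from the others by Dixon's criterion, of 51 groups of 4 looked at. Chance gives this in about 1 of 20 groups. The far library was 1 week replicate 3, the shallowest of the series, at all 3 peaks. At the Col8a1 peak at chr16:57740114-57740614 it held 854 normalised reads, above the others. At the start peak of Col16a1 (chr4:130047578-130048078) it held 257 and at that of Col4a6 (chrX:141473609-141474109) 22.0, below the others in both.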

How the results depend on the processing

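Counts of collagen peaks called moved by more than 1.5 times under these alternatives. With total-read scaling the lower count at 24 h against NSPs was 35 in place of 61, the counts at 1 week against 72 h were 19 higher and 108 lower, and the higher count with TNF at 72 h was 13. With loess offsets 35 peaks were lower at 1 week against 72 h. With only the groups compared in the fit, 22 were lower with TNF at 24 h and 33 higher at 72 h. The cause was not tested. Loess offsets turned the direction of the Col22a1 peak p30187 at 1 week against 72 h (-0.0277, adjusted p = 0.878) and of the Col5a3 peak p82877 at 24 h (0.234, adjusted p = 0.0481) and at 1 week against 72 h (-0.00237, adjusted p = 0.989).

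Leaving out each library in turn gave 51 to 70 higher and 45 to 75 lower at 24 h against NSPs, 28 to 32 and 35 to 43 at 72 h against 24 h, 38 to 46 and 44 to 55 at 1 week against 72 h, 79 to 88 and 93 to 110 at 1 week against NSPs, 15 to 27 and 4 to 8 with TNF at 24 h, and 11 to 15 and 12 to 16 with TNF at 72 h. The interaction stayed at 0. For TNF at 24 h the higher count was 15 without 24 h TNF replicate 3, and the lower count was 6 without 24 h replicate 1 or 24 h TNF replicate 3, 4 without 24 h replicate 2 or 24 h TNF replicate 2, and 5 without 24 h TNF replicate 1. For TNF at 72 h the higher count was 13 without 72 h replicate 1 or 3 and 11 without 72 h TNF replicate 1, and the lower count was 12 without 72 h replicate 1 and 13 without 72 h TNF replicate 2.

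Libraries with the same replicate number hardly varied together. Over 45 such pairs, the correlation of deviations from the group means had a median of 0.0108 and ran from -0.0449 to 0.106. Over 105 pairs with different numbers the median was -0.00172, with a range from -0.0921 to 0.0789. This cannot show whether libraries with the same number came from the same culture. A replicate block by the numbers in the titles gave 64 higher and 58 lower at 24 h against NSPs, 37 and 48 at 72 h against 24 h, 46 and 50 at 1 week against 72 h, 84 and 102 at 1 week against NSPs, 30 and 10 with TNF at 24 h, and 20 and 19 at 72 h. A block by the numbers in library names gave 13 higher with TNF at 72 h. Leaving out the 12 peaks near stretches of near-zero peaks, an alternative chosen after seeing the data, gave 62 and 54 at 24 h against NSPs and 84 and 103 at 1 week against NSPs. The depth of the shallowest library limits what can be seen at the 9 collagen peaks with a mean under 20 normalised reads.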
